A study of Mus musculus with 10 samples.

Results

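The mitochondrial genome carries 13 protein-coding genes, 2 ribosomal RNA genes and 22 tRNA genes, and 10 of its protein-coding genes are described here: mt-Nd1, mt-Nd2, mt-Nd4, mt-Nd5 and mt-Nd6, which encode subunits of complex I, mt-Cytb of complex III, mt-Co1, mt-Co2 and mt-Co3 of complex IV, and mt-Atp6 of complex V. The genes were chosen by name, and the search for their symbols found them in 4 of the 46956 loci listed for each sample, because the deposited tables join neighbouring genes into 1 row. RNA was sequenced from tumour-associated macrophages of BALB/cJ mice bearing 4T1 tumours, a mouse mammary carcinoma line grown in the mammary fat pad. One group of 5 samples came from mice given PBS vehicle. The other 5 came from mice given JHU083, a prodrug of the glutamine antagonist 6-diazo-5-oxo-L-norleucine, at 1 mg/kg from day 7 to day 13. Tumours of both groups were harvested on day 14, and live cells positive for CD45, CD11b and F4/80 and negative for CD8, Ly6C and Ly6G were sorted. The labels name no genetic change in the mice of either group and do not say whether each sample is 1 mouse, so the p-values measure only the spread between these samples.

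Mitochondrial DNA is transcribed from both strands into long precursors, and the RNAs are then cut apart, largely at the tRNAs that lie between the genes. The strand called heavy is the template for most genes, and mt-Nd6 is the only protein gene on the transcript of the light strand. The proteins join many nuclear-encoded subunits in the respiratory chain, which passes electrons to oxygen (complexes I, III and IV) and makes ATP (complex V), and glutamine is among the fuels that feed it. Poly(A)-selected libraries such as these capture the mitochondrial messengers by their tails, but the mt-Nd6 messenger is known to lack a long one.

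The first row, called the mt-Nd1/mt-Nd2/rRNA locus here (XLOC_042835), holds mt-Nd1 (chrM:2751-3707, GRCm38, positions from GENCODE M21), mt-Nd2 (chrM:3914-4951), both ribosomal RNAs mt-Rnr1 and mt-Rnr2, and 6 tRNAs. The second, the mt-Co1 to mt-Nd5 locus (XLOC_042836), holds 16 genes: mt-Co1 (chrM:5328-6872), mt-Co2 (chrM:7013-7696), mt-Atp6 (chrM:7927-8607), mt-Co3 (chrM:8607-9390), mt-Nd4 (chrM:10167-11544) and mt-Nd5 (chrM:11742-13565), with mt-Atp8, mt-Nd3, mt-Nd4l and 7 tRNAs. The mt-Cytb locus (XLOC_042837) joins mt-Cytb (chrM:14145-15288) to 1 tRNA, and the mt-Nd6 locus (XLOC_042844) is mt-Nd6 alone (chrM:13552-14070, opposite strand). Genes inside a joined row lie at most 70 bases apart, whereas 311 and 579 bases separate the rows of the heavy-strand transcript. A value for a joined row covers all of its genes, so none of the 8 members in the first 2 rows can be followed alone, and the first row includes ribosomal RNA.

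**Figure D1:**
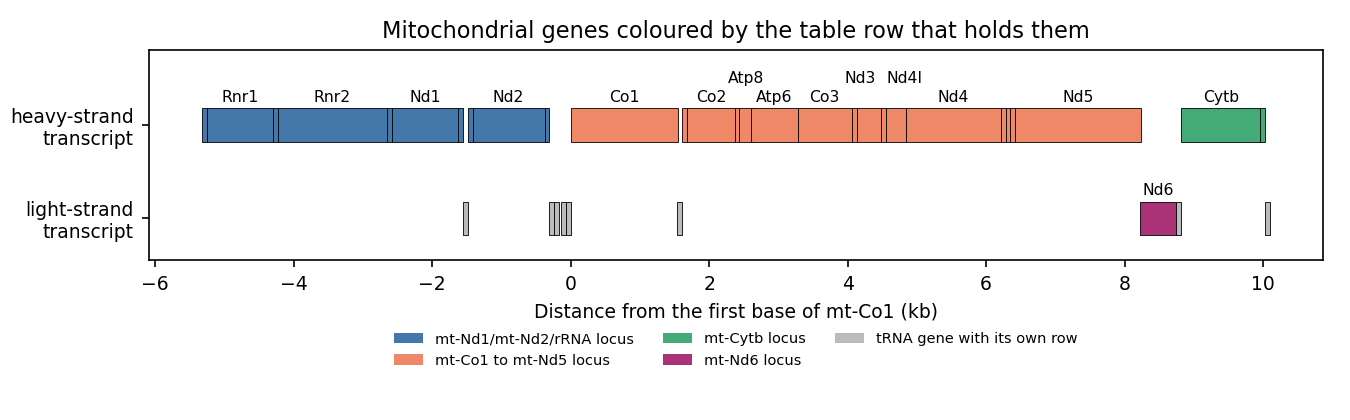
Mitochondrial genes along the genome, placed by distance in kb from the first base of mt-Co1, with genes of the heavy-strand transcript in the upper track and of the light-strand transcript in the lower. Colour marks the table row that holds a gene: 16 genes share the mt-Co1 to mt-Nd5 row, 10 share the mt-Nd1/mt-Nd2/rRNA row, mt-Cytb sits with 1 tRNA, mt-Nd6 stands alone and 8 light-strand tRNAs (grey) have rows of their own.

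The overlaps between neighbouring genes show why fragments there cannot be given to 1 gene. Each sequence below was assembled from GENCODE M21 transcripts at their GRCm38 positions, on the strand of the heavy-strand transcript. Capitals mark the bases that 2 genes share: 43 for mt-Atp8 and mt-Atp6 (window chrM:7907-7989), 7 for mt-Nd4l and mt-Nd4 (chrM:10147-10193) and 14 for mt-Nd5 and mt-Nd6 (chrM:13532-13585), which are read from opposite strands.
mt-Atp8 and mt-Atp6: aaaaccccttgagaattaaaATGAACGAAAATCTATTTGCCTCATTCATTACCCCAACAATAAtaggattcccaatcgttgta
mt-Nd4l and mt-Nd4: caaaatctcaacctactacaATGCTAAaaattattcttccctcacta
mt-Nd5 and mt-Nd6: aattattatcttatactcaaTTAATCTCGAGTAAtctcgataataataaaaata
The first 2 pairs share a row, so their overlap does not divide any count. The third pair is split over the mt-Co1 to mt-Nd5 and mt-Nd6 loci. The library kit named in the labels does not mark strand and the strand setting of the counting is not given in the sources used here, so RNA of mt-Nd6 and RNA of the opposite strand through the same bases cannot be told apart.

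All 4 loci rose in JHU083, by 1.32 to 1.62 times in mean level. The fold change was largest at mt-Nd6, although the share of the 4 loci's fragments at mt-Nd6 did not pass its test (exact permutation p = 0.063). The levels below are CPM, the fragments of a locus relative to the TMM-scaled total of its library, and each was tested with edgeR's quasi-likelihood test over 12500 loci with Benjamini-Hochberg adjustment at 0.05. In that test 36.7% of all loci were called (4589), 18.4% higher in JHU083 (2296) and 18.3% lower (2293), and the median log2 fold change of all loci was 0.01. Scaled to library size only, the split was 1564 higher and 3141 lower. In libraries made from sorted cells in bulk, fewer cells of a type and less RNA per cell cannot be told apart.

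The mt-Nd6 locus encodes a membrane subunit of complex I and is the only member with a row of its own. It had 162, 155, 156, 176 and 166 CPM in vehicle replicates 1 to 5, and 285, 249.7, 232, 268 and 286 CPM in JHU083 replicates 1 to 5. The lowest JHU083 sample lay well above the highest vehicle sample, so the groups did not overlap. The rise in the mean, from 163 ± 8.57 to 264 ± 23.5 CPM (± SD, n = 5), gave log2 0.70 ± 0.07 (± SE, edgeR adjusted p = 1.51e-05). Of all loci tested, 5.44% had a larger rise. These levels rest on 2028 to 2387 fragments per vehicle library and 3110 to 4374 per JHU083 library.

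The mt-Nd1/mt-Nd2/rRNA locus, with 2 membrane subunits of complex I and the ribosomal RNAs, had 3944, 5681, 5170.5, 7142 and 6063 CPM in vehicle replicates 1 to 5. The JHU083 replicates had 8416, 7434, 8648, 8589 and 7279 CPM. The highest vehicle sample, replicate 4, came close to the lowest JHU083 samples, replicates 5 and 2, but the groups did not overlap on this scale. Vehicle averaged 5600.2 ± 1175 CPM and JHU083 8073 ± 662 (± SD, n = 5), and the fitted change was log2 0.53 ± 0.15 (± SE, edgeR adjusted p = 0.0122). Its vehicle samples were the most spread of the 4 loci, and vehicle replicate 1 was the lowest.

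The mt-Co1 to mt-Nd5 locus carries the 3 catalytic-core subunits of complex IV, mt-Atp6 of the ATP synthase proton channel, and mt-Nd4 and mt-Nd5 of the proton-pumping arm of complex I. It was the third most abundant locus of all by fragments. Vehicle replicates 1 to 5 had 9311, 9160.4, 9563, 10443 and 9601 CPM, and JHU083 replicates 1 to 5 had 12564, 11192, 13890.1, 13599.5 and 12244 CPM. Every JHU083 sample lay above every vehicle sample, and the vehicle samples lay close together. Means of 9616 ± 497 CPM in vehicle and 12698 ± 1087 in JHU083 (± SD, n = 5) gave a rise of log2 0.40 ± 0.11 (± SE, edgeR adjusted p = 0.0123).

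The mt-Cytb locus, which encodes cytochrome b, the electron-carrying core of complex III, had 1718, 2019.7, 2240.4, 2438 and 1883 CPM in vehicle replicates 1 to 5. The JHU083 replicates had 3025, 2528, 2671, 2954 and 2543 CPM. The groups did not overlap, though vehicle replicate 4 and JHU083 replicates 2 and 5 lay close together. It averaged 2059.8 ± 285 CPM in vehicle and 2744 ± 232 in JHU083 (± SD, n = 5), and rose by log2 0.41 ± 0.11 (± SE, edgeR adjusted p = 0.0103).

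**Figure D2:**
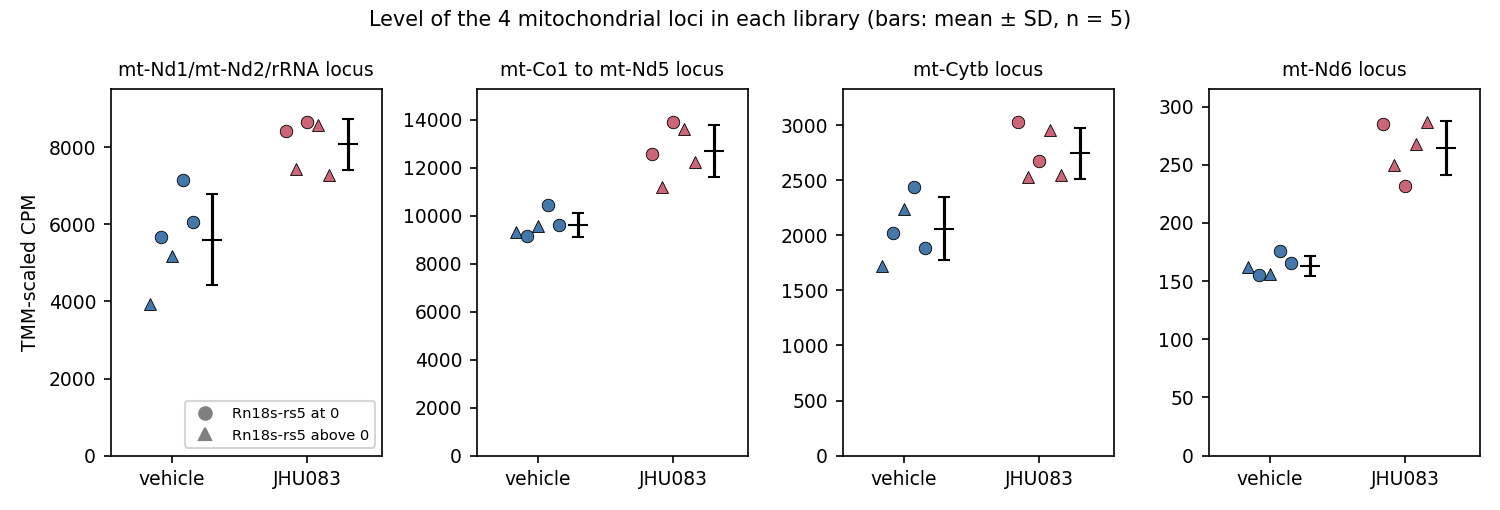
TMM-scaled CPM of each mitochondrial locus, 1 point per library, in the vehicle (blue) and JHU083 (red) groups, with bars for the mean ± SD (n = 5) and axes from 0. Circles mark libraries in which Rn18s-rs5 is listed at 0 and triangles the others; at all 4 loci the lowest JHU083 library lies above the highest vehicle library, and at the mt-Nd1/mt-Nd2/rRNA locus these are 7142 and 7279 CPM.

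All 4 loci thus had every JHU083 sample above every vehicle sample, as had 11.2% of all loci tested (1394). As an unscaled share of the library, 2 of them overlapped: the mt-Nd1/mt-Nd2/rRNA locus made up 0.398% to 0.737% of fragments in vehicle and 0.706% to 0.831% in JHU083, and mt-Cytb 0.174% to 0.252% and 0.247% to 0.299%. Summed over the 4 loci the share was 1.53%, 1.83%, 1.74%, 2.09% and 1.77% in vehicle replicates 1 to 5 and 2.40%, 2.14%, 2.40%, 2.44% and 2.17% in JHU083 replicates 1 to 5. Taken from the deposited FPKM instead, a measure that also divides by a length, the difference between the group means was 1.18 percentage points (2.50% and 3.69%). From fragments it was 0.515 (1.79% and 2.31%). The cause of the gap between 1.18 and 0.515 was not tested.

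The libraries also differed in a way the labels do not record. Rn18s-rs5 and Gm42418, which carry ribosomal RNA sequence, were listed at 0 in vehicle replicates 2, 4 and 5 and JHU083 replicates 1 and 3, and held 2.87% to 5.59% of fragments in the other 5 libraries. Each status left 2 samples against 3, with far fewer calls over all loci (532 higher with these loci at 0, 1276 with them above 0). Within each status mt-Nd6 still rose, by log2 0.64 (adjusted p = 0.0171) in the libraries at 0 and 0.74 (adjusted p = 0.0016) in the others. The mt-Nd1/mt-Nd2/rRNA locus had log2 fold changes of 0.44 (adjusted p = 0.0861) and 0.76 (adjusted p = 0.0075). Those of the mt-Co1 to mt-Nd5 locus were 0.45 and 0.38 (adjusted p = 0.0736 and 0.0826) and those of mt-Cytb 0.43 and 0.42 (adjusted p = 0.0979 and 0.0655). All 8 values within a status were thus above 0, from 0.38 to 0.76, while 3 loci lost their call at 0 and 2 above 0. With the status as a covariate all 4 loci were called.

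Depth was 11147723 to 14575720 fragments in vehicle and 13638169 to 15740487 in JHU083. Summed marker levels are given as CPM of the library total, without TMM scaling. Macrophage markers were abundant in all libraries, with a summed level over 10 genes of 15121 to 17657 CPM in vehicle and 16809 to 20006 in JHU083. Of these, 4 rose (Adgre1, Csf1r, Mrc1 and Mertk) and 0 fell. Markers of other cells moved too. All 8 tumour epithelium markers fell (271 to 617 CPM summed in vehicle, 90.5 to 190.1 in JHU083), as did 3 of 6 tested neutrophil markers (337 to 757 and 168 to 323), with 1 higher, 4 of 5 fibroblast markers (98.3 to 236 and 23.0 to 109.8) and 1 of 4 endothelial markers (127 to 217 and 36.4 to 85.4). Of the 8 T and NK cell markers only Cd4 was abundant enough to be tested, and it rose (summed level 14.5 to 18.9 and 26.7 to 42.6 CPM). B cell, dendritic cell, eosinophil and erythroid markers summed to at most 18.8 CPM in any library. Among them Cd79b (B cell) and Siglecf (eosinophil) rose, while the erythroid markers, too low to be tested, summed to 1.38 to 2.34 CPM in vehicle and 0 to 0.135 in JHU083. The part of the macrophage markers and of these other cells in the rise of the mitochondrial loci was not tested.

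Levels of different genes were compared per kilobase of gene. On TMM-scaled CPM per kilobase, mt-Cytb was highest with 1701 ± 235 in vehicle and 2266 ± 192 in JHU083 (SD, n = 5). The mt-Co1 to mt-Nd5 locus (1178 ± 60.9 and 1556 ± 133) and the mt-Nd1/mt-Nd2/rRNA locus (1132 ± 238 and 1633 ± 134) followed and did not differ from each other beyond their spread in either group. mt-Nd6 was lowest, with 314 ± 16.5 and 509 ± 45.3. The deposited FPKM gave another order, with means in vehicle and JHU083 of 18297 and 24869 at the mt-Co1 to mt-Nd5 locus, 5455 and 7581 at the mt-Nd1/mt-Nd2/rRNA locus, 2038 and 2723 at mt-Cytb, and 495 and 804 at mt-Nd6. The order of the joined rows thus differs between CPM per kilobase and FPKM, while mt-Nd6 is last and all 4 means are higher in JHU083 on both scales.

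Among the fragments of the 4 loci, the mt-Co1 to mt-Nd5 locus held 55.4 ± 3.71% in vehicle and 53.4 ± 1.36% in JHU083, the mt-Nd1/mt-Nd2/rRNA locus 31.8 ± 3.76% and 33.9 ± 0.872%, and mt-Cytb 11.8 ± 0.905% and 11.6 ± 0.711% (SD, n = 5). mt-Nd6, the light-strand gene, made up 1.07%, 0.913%, 0.909%, 0.872% and 0.935% in vehicle replicates 1 to 5 and 1.17%, 1.17%, 0.911%, 1.06% and 1.28% in JHU083 replicates 1 to 5. The groups overlapped: vehicle replicate 1 lay above JHU083 replicates 3 and 4, and JHU083 replicate 3 lay among the lower vehicle samples. The mean share was 0.940 ± 0.0765% in vehicle and 1.12 ± 0.140% in JHU083 (SD, n = 5), a difference of 0.178 percentage points that did not pass an exact two-sided permutation test over 252 splits (p = 0.063, smallest possible 0.0079). It passed without vehicle replicate 1 (0.210, exact permutation p = 0.0317) and without JHU083 replicate 3 (0.229, exact permutation p = 0.0238), so 1 library decides this call. Taken from the deposited FPKM, the difference was 0.328 percentage points (exact permutation p = 0.0556).

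The composition of the joined rows can be followed only through the 2 deposited columns. The scaled count per FPKM, an effective length, was set relative to that of mt-Cytb in the same library; this measure was chosen after its values were seen and has no test. At the mt-Nd1/mt-Nd2/rRNA locus it was 1.01 ± 0.0159 in vehicle (0.988 to 1.03) and 1.06 ± 0.0100 in JHU083 (1.05 to 1.07, SD, n = 5), with no overlap. At the mt-Co1 to mt-Nd5 locus it was 0.525 ± 0.0519 and 0.508 ± 0.0408 and the groups overlapped. At mt-Nd6, which has 1 transcript, it was 0.325 and 0.327. The mt-Co1 to mt-Nd5 row holds 8161 bases of genes and mt-Cytb's row 1211, so the deposited FPKM of a joined row was not made from the summed length of its genes.

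**Figure D3:**
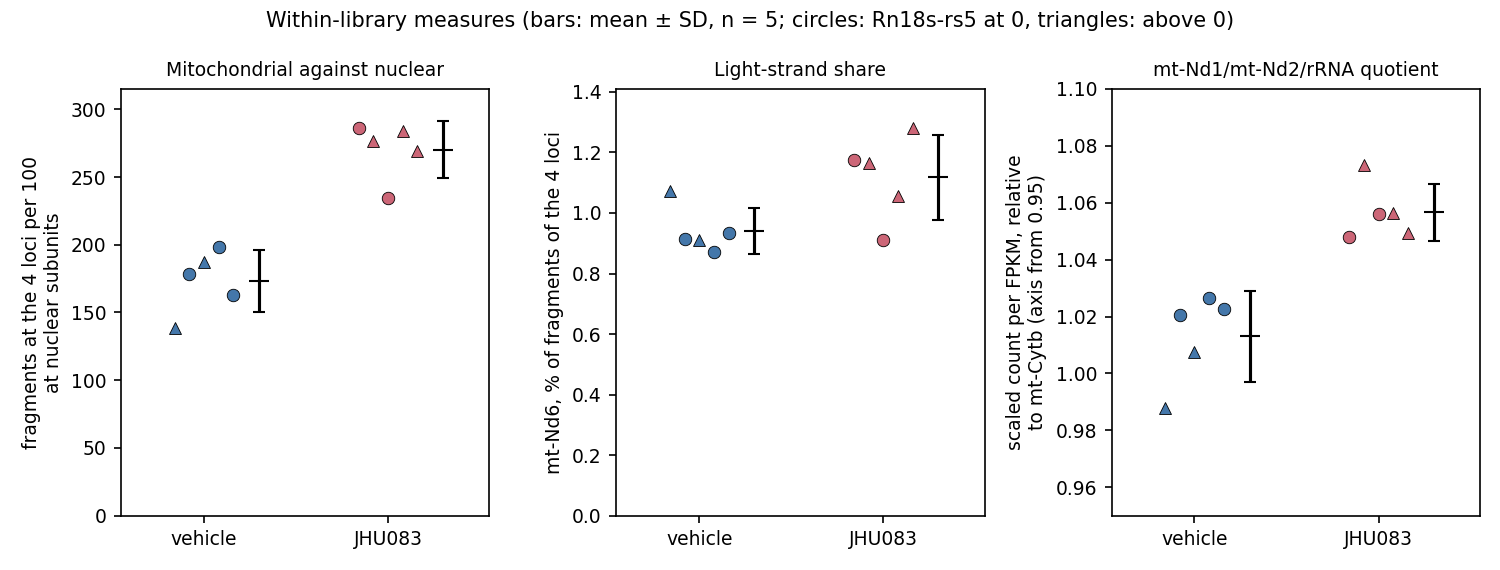
The 3 ratios within each library by group, 1 point per library with mean ± SD (n = 5): fragments of the 4 loci per 100 at nuclear subunits (left, axis from 0), percent of the 4 loci's fragments at mt-Nd6 (middle, axis from 0) and scaled count per FPKM of the mt-Nd1/mt-Nd2/rRNA locus relative to mt-Cytb (right, axis from 0.95). The groups are apart in the left (139 to 198 and 235 to 286) and right panels and overlap in the middle one.

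Across samples within a group, the 3 heavy-strand loci deviated together more than mt-Nd6 did with them. After the group means of log2 CPM were subtracted, Pearson's r over the 10 samples was 0.73 between mt-Nd1/mt-Nd2/rRNA and mt-Cytb, 0.58 between mt-Nd1/mt-Nd2/rRNA and mt-Co1 to mt-Nd5, and 0.54 between mt-Co1 to mt-Nd5 and mt-Cytb. The r of mt-Nd6 with the same 3 loci was 0.17, 0.04 and 0.30. These values are descriptions over libraries that share depth and scaling. By the same measure, the loci most like the mean of the 4 among 7250 compared were Riok3 (r = 0.90), Tspan13 (0.87), Rrp12 (0.82), Mphosph8 (0.81) and Ifi202b (0.81). Between treatments these did not move one way: Riok3, an atypical kinase, rose by log2 0.27 (edgeR adjusted p = 0.0038) and Ifi202b, an interferon-induced gene, by 0.31 (adjusted p = 0.0153), while Rrp12, a ribosome assembly factor, fell by 0.64 (adjusted p = 0.000136). The loci were picked as the highest of 7250 values of r over 10 samples. How high chance alone would reach was not tested.

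A further 8 rows hold mitochondrial tRNAs of the light-strand transcript, and short RNAs of this kind are poorly captured by such libraries. Only mt-Ts1 could be tested, with 9 to 20 fragments per library; it averaged 0.952 ± 0.215 CPM in vehicle and 1.25 ± 0.254 in JHU083 (± SD, n = 5), and its log2 fold change was 0.38 ± 0.26 (± SE, edgeR adjusted p = 0.279). The other 7 had at most 5 fragments in any library, and mt-Tq had 0 in all 10.

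The nuclear genome carries old copies of mitochondrial DNA, and fragments from one can align to the other. Of the 10 members, 9 had a nuclear copy annotated in GENCODE M21 with at least 100 aligned bases, mt-Nd1 being the exception. The start of mt-Atp6 (chrM:7927-7986) and of its copy Gm10925 (chr1:24614592-24614651, minus strand) are shown because they are identical, as are 678 bases of the pair, and the starts of mt-Nd6 (chrM:14011-14070, minus strand) and of its copy Gm11408 (chr4:80003855-80003914, minus strand) because they are not; capitals mark the 2 bases that differ.
mt-Atp6: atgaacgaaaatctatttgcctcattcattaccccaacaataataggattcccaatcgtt
Gm10925: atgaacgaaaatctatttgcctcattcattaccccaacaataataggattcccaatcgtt
mt-Nd6: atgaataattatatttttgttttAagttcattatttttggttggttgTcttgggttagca
Gm11408: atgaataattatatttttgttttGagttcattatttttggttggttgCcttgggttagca
Gm11408 is 93.6% identical over 519 bases and had at most 1 fragment in a library, so little was assigned to this copy. On chromosome 1 a cluster of copies matches mt-Co2 (Gm28661), mt-Co3 (Gm28437), mt-Atp6 (Gm10925) and part of mt-Nd4 (Gm28439) at 100%, and their fragments cannot be told apart from those of the mitochondrial genes.

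Of the copies, 6 symbols on the list used for the tests had a sequence match and enough fragments, and 3 of these 6 rose, against 18.4% of all loci. Within the libraries listing Rn18s-rs5 at 0, which hold fewer samples, 0 were called higher. The 20 copies present in the tables held 342 to 394 fragments in vehicle and 528 to 650 in JHU083 in all. That was 1.65 ± 0.111 per 1000 fragments at the 4 mitochondrial loci in vehicle and 1.78 ± 0.150 in JHU083 (SD, n = 5), and the groups overlapped. The 3 were Gm10925, higher by log2 0.76 (edgeR adjusted p = 0.0016), Gm28437 by 0.63 (adjusted p = 0.0066) and Gm28661 by 0.59 (adjusted p = 0.0041). None of the 6 was called lower by edgeR, DESeq2 or limma-voom, and 0 had an unadjusted p under 0.05 in that direction. Gm20604, also on the list, had no sequence match and shares a row with 6 other symbols, and its row was not called (log2 fold change 0.09, adjusted p = 0.41).

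None of the nuclear-encoded subunits of the same complexes was called higher. Of 79 loci for subunits of complexes I to V and their small partners, 0 were higher in JHU083 and 21 were lower (26.6%, against 18.3% of all loci), with a median log2 fold change of -0.21 and a range from -0.57 to 0.20. edgeR gave 1 locus higher at an unadjusted p under 0.05, as did DESeq2 and limma-voom, and neither of those called any after adjustment. The fold change lay below 0 for 73 of the 79.

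The counts by complex stand beside 18.3% of all loci lower, and they were not tested against that share. Complex I had 8 of 36 nuclear loci lower (median -0.21), with the largest falls at Ndufb6 (49.9 ± 4.29 to 37.6 ± 6.66 CPM, log2 fold change -0.41, edgeR adjusted p = 0.0125) and Ndufc1 (-0.39, adjusted p = 0.0165), both accessory membrane subunits. For complex II, which has no mitochondrially encoded subunit, 0 of 4 were called in either direction (median -0.08), and 0 had an unadjusted p under 0.05 by edgeR, DESeq2 or limma-voom; without JHU083 replicate 3 edgeR called 1 lower. Complex III had 2 of 9 lower (median -0.26): Cyc1, cytochrome c1 (-0.32, adjusted p = 0.0461), and Uqcrc1, a core protein (-0.27, adjusted p = 0.0485). Each of these 2 calls was lost when any 1 library other than vehicle replicate 3 or JHU083 replicate 3 was left out (highest adjusted p = 0.114 and 0.126). The count for complex III was 6 without JHU083 replicate 3, 4 without vehicle replicate 3, 1 without vehicle replicate 2 and 0 without any other library. In complex IV 5 of 12 were lower (median -0.21), and Cox5a, a structural subunit, fell most (153 ± 25.2 CPM in vehicle, 103 ± 15.1 in JHU083, log2 fold change -0.57 ± 0.12 SE, adjusted p = 0.0024). Cycs, cytochrome c itself, fell by 0.34 (adjusted p = 0.0183). Complex V had 6 of 18 lower (median -0.25), among them Atp5g1, which encodes the c-ring subunit (-0.50, adjusted p = 0.0034), and Atpif1, the inhibitor of the ATP synthase in reverse (-0.42, adjusted p = 0.0058). With 1 library left out the counts ranged from 4 to 26 in complex I, 1 to 11 in complex IV and 4 to 15 in complex V, and Cycs lost its call without vehicle replicate 1 (adjusted p = 0.0516).

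**Figure D4:**
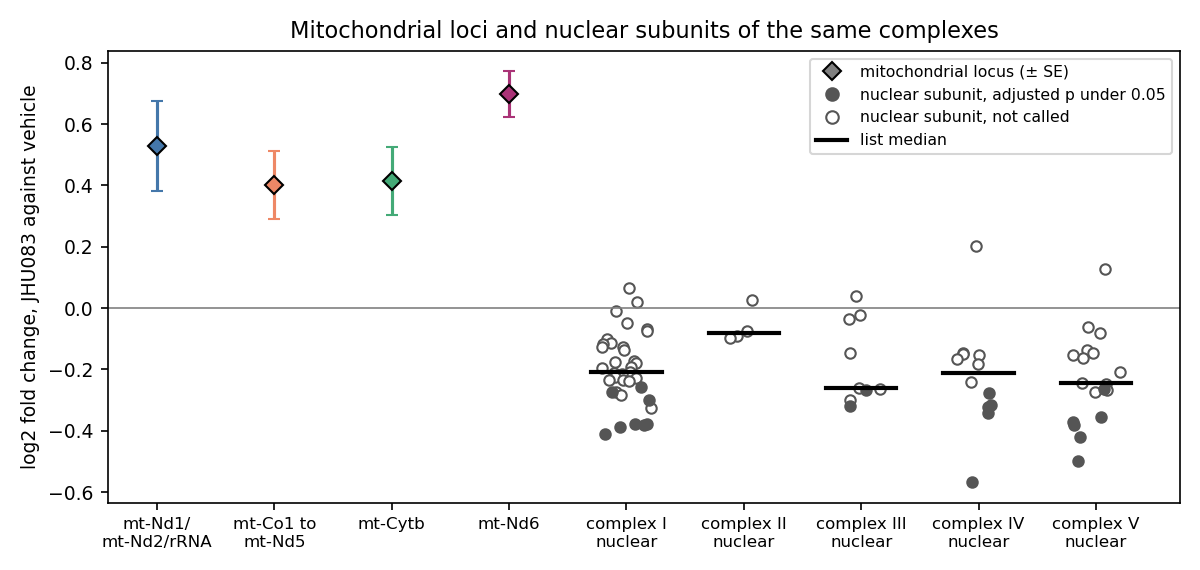
Log2 fold change of JHU083 against vehicle for the 4 mitochondrial loci (diamonds, bars ± SE) and for single nuclear loci of complexes I to V (circles, filled where edgeR's adjusted p is under 0.05, with a line at each list's median). The mitochondrial loci lie between 0.40 and 0.70, the 79 nuclear loci between -0.57 and 0.20, and no filled circle lies above 0.

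The summed level of the 79 nuclear loci was 10898, 9544, 9136, 10179.5 and 10853 CPM in vehicle replicates 1 to 5 and 8483, 7729, 10848, 8940.5 and 8313 CPM in JHU083 replicates 1 to 5. JHU083 replicate 3 stood with the vehicle samples, above the other 4 JHU083 samples. Without it 59 of the 79 loci were lower, while leaving out vehicle replicate 1 or 5 gave 9 or 13 and leaving out JHU083 replicate 2, 4 or 5 gave 12, 13 or 12. The count was 47 when scaled to library size only or with sample quality weights in limma-voom, and 0 of 79 within the libraries listing Rn18s-rs5 at 0, 1 of which is JHU083 replicate 3.

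Within each library, the 4 mitochondrial loci gave 139, 178, 187, 198 and 163 fragments per 100 at the 79 nuclear loci in vehicle replicates 1 to 5, and 286, 277, 235, 284 and 269 in JHU083 replicates 1 to 5. The lowest JHU083 value, replicate 3, was above every vehicle value, and the mean went from 173 ± 23.2 to 270.2 ± 21.1 (SD, n = 5). Complex by complex, mt-Nd6 gave 6.55 ± 0.443 fragments per 100 of nuclear complex I in vehicle and 12.3 ± 2.23 in JHU083, without overlap. mt-Cytb gave 211 ± 42.9 per 100 of nuclear complex III in vehicle and 322 ± 46.0 in JHU083, where JHU083 replicate 3 (245) fell within the vehicle range. Such a ratio takes no library total, and none of these ratios was tested.

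Genes that copy, transcribe and process mitochondrial DNA and RNA were mostly not called. Of 38 tested, 3 rose (7.89%, against 18.4% of all loci) and 5 fell (13.2%, against 18.3%), with a median log2 fold change of -0.08. Among 16 for DNA replication and transcription, Mgme1, a nuclease of mitochondrial DNA replication, rose (16.2 ± 2.10 CPM in vehicle, 22.0 ± 1.31 in JHU083, log2 fold change 0.45, edgeR adjusted p = 0.0036). None of the 16 was called lower by edgeR or DESeq2 and 1 by limma-voom, and 1 had an unadjusted p under 0.05 in each tool. The mitochondrial RNA polymerase Polrmt had a log2 fold change of -0.14 (adjusted p = 0.331), the packaging and transcription factor Tfam -0.05 (adjusted p = 0.785) and the helicase Twnk, listed as Peo1, 0.22 (adjusted p = 0.0904).

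Of 22 genes for RNA processing, stability and decay, 2 rose: Trmt10c, part of the enzyme that cuts the 5′ ends of mitochondrial tRNAs (0.41, edgeR adjusted p = 0.0157), and Angel2 (0.26, adjusted p = 0.0079). Another 5 fell, with the largest falls at Ptcd2 (-0.52, adjusted p = 0.0055), a pentatricopeptide protein, and Tbrg4 (-0.34, adjusted p = 0.0124), a FASTK family RNA-binding protein whose locus lists 1 other symbol. Lrpprc, which stabilises the mitochondrial messengers of the heavy-strand transcript, had 48.5 ± 4.77 and 45.0 ± 3.83 CPM and was not called (-0.11, adjusted p = 0.369). Without vehicle replicate 3 the rises over both lists numbered 5, and without JHU083 replicate 3 the falls numbered 9. Within the libraries at 0 at Rn18s-rs5, 0 of the 38 were called in either direction.

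Of 12 regulators of mitochondrial biogenesis tested, 1 rose, 2 fell and 9 were not called, against 18.4% of all loci higher and 18.3% lower. Sirt1, a deacetylase, rose (23.0 ± 3.92 CPM in vehicle, 39.4 ± 7.07 in JHU083, log2 fold change 0.78, edgeR adjusted p = 0.000697). Myc, a transcription factor, fell by 0.88 (adjusted p = 0.000256) and Pprc1, a PGC-1 related coactivator, by 0.44 (adjusted p = 0.0062). The falls in this list numbered 4 scaled to library size only and 1 within the libraries above 0 at Rn18s-rs5. Ppargc1b was low and not called (6.15 ± 0.675 and 5.78 ± 1.41 CPM, adjusted p = 0.702). Of 11 mitophagy and dynamics genes 3 rose, among them the kinase Pink1 (0.60, adjusted p = 0.000386), whose locus lists 2 other symbols, and the mitophagy receptor Bnip3l (98.8 ± 3.74 to 121.5 ± 4.48 CPM, 0.30, adjusted p = 0.0021). edgeR called none of the 11 lower and 0 had an unadjusted p under 0.05; DESeq2 and limma-voom also called 0 and each had 1 unadjusted. The count of rises was 5 without vehicle replicate 3, without JHU083 replicate 3 or with sample quality weights in limma-voom. It was 2 without vehicle replicate 4 or 5, without JHU083 replicate 1 or scaled to library size only, and 1 within the libraries of each status at Rn18s-rs5.

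**Figure D5:**
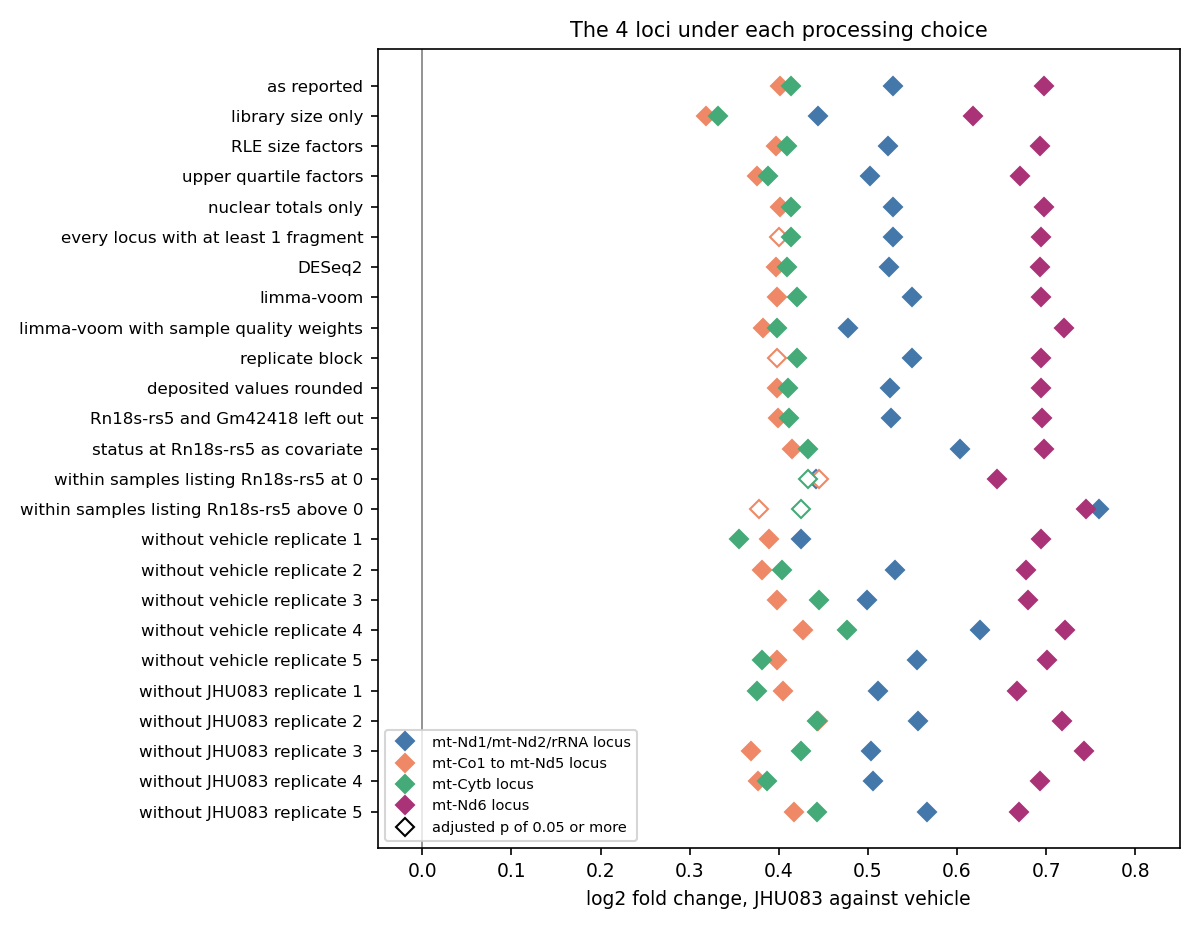
Log2 fold change of the 4 mitochondrial loci (colours) under each way of processing the data, 1 line per setting, with open symbols where the adjusted p is 0.05 or more. All values lie above 0, from 0.32 to 0.76, and mt-Nd6 (0.62 to 0.74) is filled on every line.

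The rise held in direction under every setting plotted by processing choice. mt-Nd6 was called under all of them, with values from 0.62 to 0.74. The mt-Co1 to mt-Nd5 locus missed the threshold when every locus with at least 1 fragment was kept (0.40, edgeR adjusted p = 0.0536), and 3 of the 4 loci were then called. The replicate number as a block gave it 0.40 (adjusted p = 0.0544). Within the libraries of 1 status at Rn18s-rs5, with fewer samples, the same locus and mt-Cytb missed it in both subsets and mt-Nd1/mt-Nd2/rRNA in the libraries at 0; the highest value plotted, 0.76, is that of mt-Nd1/mt-Nd2/rRNA in the other subset. Leaving out any 1 sample kept all 4 calls.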

How the data were processed

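RNA of 10 sorted samples was isolated with oligo d(T) beads, randomly primed and made into Illumina libraries, per the labels' protocols. The submitters' processing notes name bcl2fastq 2.17.1.14, FastQC 0.11.2, TopHat2 2.1.1 and GRCm38. The counting program, annotation and strand setting are not given in the sources used here. Each table holds, per the file headers, a raw count and a normalized value per locus. The former, as deposited, are not whole numbers, and the closest unit for them is expected counts. In each sample they were multiples of 1 step (0.888 to 1.17), and dividing by it gave whole fragments, within 0.05, for 99.8% to 100.0% of positive values. That they are scaled fragment counts is an inference from the values. The normalized values the authors deposited were read as FPKM, also from the values, and served only for levels, shares and the count-per-FPKM ratio. One row without a symbol (147 to 297 fragments) was left out, and 1060 rows list several symbols.

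Loci passing filterByExpr were compared with edgeR 4.0.16 (R 4.3.3, TMM, quasi-likelihood F-test, no covariate, adjusted p under 0.05), from which all adjusted p-values come unless another tool is named. The SE is the absolute log2 fold change divided by the square root of F. log2 CPM used a prior count of 2. Share tests were exact permutations of the group labels (numpy 2.4.6). With the replicate number as a block, the signs of the same-numbered differences were flipped instead. Other settings tried were limma 3.58.1 (voom, also with quality weights), DESeq2 1.42.0, other scalings and filters, the status at Rn18s-rs5, each sample left out, and the replicate number as a block. Same-numbered samples had correlations of deviations of -0.57 to 0.09, so the numbers were not taken to pair them.

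Members, gene lists and tests were chosen with earlier results of these data known. Besides every member, the text names the 2 largest rises and 2 largest falls called in each list, Polrmt, Tfam, Lrpprc, Ppargc1b and Twnk, and the 5 loci (average log2 CPM of at least 4) most like the members in pattern. Gm28661, the third copy called, is named beyond that rule, as it was one of 3. Nuclear copies were found with blastn 2.17.0, and sequences were taken from GENCODE M21 transcripts, with their positions in GRCm38.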

Additional observations from a re-analysis of the deposited data

Results flagged for a closer look

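In 62 sets of 5 values, for the levels of the mitochondrial loci and the named genes, the mt-Nd6 share and the summed share in each group, the highest or lowest library was checked for its distance from the other 4. Of these, 3 stood apart, and chance alone gives about 1 in 20, or 3.1. None was a mitochondrial locus. Cyc1, a nuclear subunit of complex III, had 7.01 on the log2 CPM scale in JHU083 replicate 3, against 6.36 to 6.53 in the other JHU083 libraries. Myc had 4.38 in the same library, against 4.82 to 4.93. Lrpprc had 5.34 in vehicle replicate 5, against 5.61 to 5.71 in the other vehicle libraries.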

How the results depend on the processing

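Among all 12500 loci, 1821 to 2899 were higher and 1900 to 2930 lower when 1 library was left out. Within the libraries listing Rn18s-rs5 at 0 these counts were 532 and 586, and 1276 were higher within the others. Of the 4 mitochondrial loci, 1 and 2 were called within these subsets. The mt-Nd1/mt-Nd2/rRNA locus was then at 0.44 (adjusted p = 0.0861) in the libraries at 0, mt-Co1 to mt-Nd5 at 0.45 (at 0) and 0.38 (above 0), and mt-Cytb at 0.43 and 0.42. These subsets hold fewer samples. With every locus of at least 1 fragment kept, mt-Co1 to mt-Nd5 had 0.40 (adjusted p = 0.0536). With the replicate number as a block it had 0.40 (adjusted p = 0.0544); the numbers do not pair the samples, and the other 3 loci were called.

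Nuclear subunits lower numbered 47 scaled to library size only, 47 with quality weights, 12 with the replicate block, 0 within the libraries at 0, and 9 to 59 with 1 library left out. For the mitochondrial DNA and RNA machinery, 8 were lower scaled to library size only, 2 with the block, 0 within the libraries at 0, 1 within the others and 4 to 9 with 1 library left out; 0 and 0 were higher within the subsets, and 3 to 5 with 1 left out. The difference in the summed share was 1.18 points from FPKM. The mt-Nd6 share difference ranged from 0.137 to 0.229 with 1 library left out. With the block it was 0.178 (exact sign-flip permutation p = 0.0625, the smallest possible). From FPKM it was 0.328 (exact permutation p = 0.0556). The cause of these changes was not tested. Uncalled genes that changed sign were Tfam, at 0.076 within the libraries at 0 and -0.12 to 0.024 with 1 library left out, and Ppargc1b at 0.14 within the others. Of 600 single-gene values under alternatives, 552 kept direction and call, 45 lost the call and 3 changed sign.

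Of 8 tRNA rows 1 had enough fragments to be tested. No strand, and no gene inside a joined row, can be resolved.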
